A study of Mus musculus with 9 samples.

Results

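The 47 genes described here encode the working parts of the lysosome: 5 membrane proteins, 2 lumenal carriers or activators, 18 hydrolases, 20 subunits of the proton pump V-ATPase, the transcription factor Tfeb and the autophagy receptor Sqstm1. They were taken as 27 genes listed by name together with the 20 measured symbols that begin with Atp6v0 or Atp6v1, out of 18193 genes on the array, with the cathepsins left out. This set and the lists read later were chosen with earlier results of these data known. Their shares called, set beside those of all genes, are therefore descriptions. Where a gene had several probe sets, it was represented by the one with the highest mean over the 9 arrays, a choice made without regard to the groups. The RNA came from L8057, a mouse line of megakaryocytic cells, the lineage that sheds platelets. Lentiviral short hairpin RNAs lowered CBFb in the group CBFb_KD and Ring1b in the group Ring1b_KD, and the Control group received the empty vector. Every group was selected in puromycin from 48 h after infection and was given 50 nM of the phorbol ester TPA at the same time to drive maturation. RNA was collected 72 h later, while the sample notes give 3 days of TPA. The design text calls the 3 arrays of a group biological replicates. Whether each came from its own infection is not said, and the p-values then speak only of the scatter among these arrays. Both knockdowns were set against the same 3 Control arrays.

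Lysosomes are acidic compartments in which proteins, lipids and glycans are broken down. The V-ATPase acidifies them: its cytosolic V1 sector hydrolyses ATP, and its membrane V0 sector carries protons into the lumen. Most soluble hydrolases reach the lysosome on mannose 6-phosphate receptors, and many genes of this set are known targets of the factor TFEB, which binds an E-box flanked as GTCACGTG. In megakaryocytes and platelets, the dense granules are lysosome-related organelles that also depend on the V-ATPase. CBFb is the partner of the RUNX factors and does not itself bind DNA, and Ring1b, encoded by Rnf2, is the ubiquitin ligase of Polycomb repressive complex 1.

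To show the sequence through which TFEB is known to act, 5 promoter stretches that hold the E-box are given, although most of the genes with a promoter window lack it, from the RefSeq promoter table of GRCm38.p6. Each is 80 bases, written 5′ to 3′ on the strand of the gene, and capitals mark CACGTG and, where it is present, the longer GTCACGTG read on either strand. Lamp1, at chr8:13159097-13159176 on the plus strand, is shown for its 4 E-boxes and its fall in Ring1b_KD. Mcoln1, at chr8:3500410-3500489 on the plus strand, and Gla, at chrX:134601158-134601237 on the minus strand, are shown as genes higher in CBFb_KD than in either other group. Atp6v0b, at chr4:117887324-117887403 on the minus strand, and Atp6v0d1, at chr8:105566045-105566124 on the minus strand, represent the proton pump.
Lamp1: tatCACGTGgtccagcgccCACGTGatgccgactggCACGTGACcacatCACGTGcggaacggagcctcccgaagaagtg
Mcoln1: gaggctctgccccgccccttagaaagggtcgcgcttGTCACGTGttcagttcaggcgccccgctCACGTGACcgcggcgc
Gla: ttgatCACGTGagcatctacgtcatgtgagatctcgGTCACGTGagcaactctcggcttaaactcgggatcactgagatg
Atp6v0b: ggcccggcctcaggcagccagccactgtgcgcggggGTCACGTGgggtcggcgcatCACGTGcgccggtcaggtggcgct
Atp6v0d1: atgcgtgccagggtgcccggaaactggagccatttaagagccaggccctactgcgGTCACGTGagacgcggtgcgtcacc

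A promoter window, from 250 bases before to 50 after the start site, was given for 39 of the 47 genes, in 43 windows. The letters CACGTG, a palindrome, stood in 11 of these 43 windows (25.6%) and in 1574 of the 18010 windows of all measured genes (8.74%). The longer GTCACGTG, searched on both strands and containing the shorter motif, stood in 8 of 43 (18.6%) against 3.26% of all windows. TGTGGT, the core of the RUNX motif, searched on both strands, stood in 10 of 43 (23.3%) against 13.7%. Within the set, CACGTG stood in 5 of 22 windows (22.7%) of genes called in CBFb_KD against Control and in 6 of 21 (28.6%) of those not called. In the same order GTCACGTG stood in 3 of 22 (13.6%) and 5 of 21 (23.8%), and TGTGGT in 6 of 22 (27.3%) and 4 of 21 (19%). A match is a description of these letters and shows no binding.

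**Figure D1:**
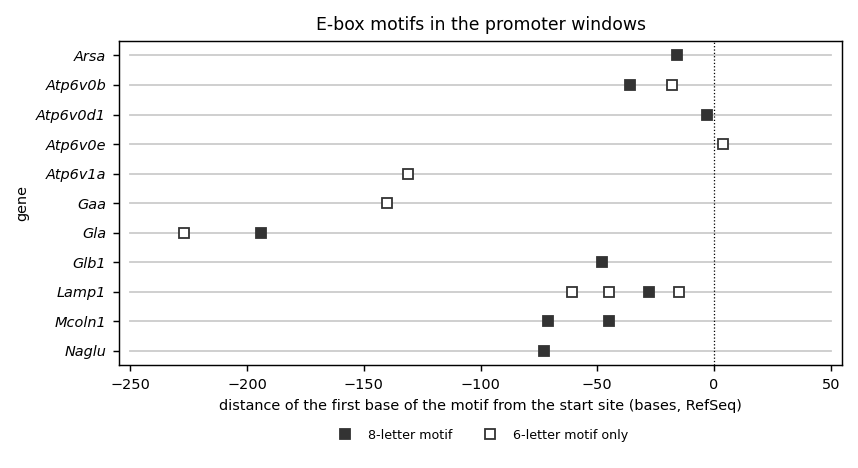
Position of every CACGTG in the promoter windows of the 11 genes that hold one, as the distance in bases of its first base from the RefSeq start site. Filled squares lie within the 8-letter GTCACGTG and open squares do not; Lamp1 has 4 sites between -61 and -15, and Gla has its pair farthest upstream.

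The arrays carried the intended knockdowns. Cbfb read 12.36 ± 0.12 (log2 signal, mean and SD, n = 3) in Control and 9.19 ± 0.11 in CBFb_KD, 9.02-fold lower (limma adjusted p = 3.28e-10). Rnf2 read 10.65 ± 0.08 in Control and 8.98 ± 0.08 in Ring1b_KD, 3.17-fold lower (limma adjusted p = 3.31e-07). Arrays of the same group correlated at 0.995 to 0.997 over all genes and arrays of different groups at 0.987 to 0.994. Of the megakaryocyte markers, Pf4, Gata1 and Itga2b lay far above the median gene of 7.42 in every group (means over the 9 arrays of 14.47, 11.73 and 11.62), and Itgb3 and Vwf lay below it in every group. Ppbp lay below it in Control (mean 6.81) and Ring1b_KD (6.32) and above it in CBFb_KD (8.43). The 3′ minus 5′ signal of the pyruvate carboxylase control probe sets was 0.20 to 0.48 in CBFb_KD, -0.17 to 0.43 in Ring1b_KD and 0.25 to 0.49 in Control.

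Lysosomal and V-ATPase transcripts were on balance more abundant after CBFb knockdown. Called genes are those with a limma adjusted p under 0.05, adjusted over all 18193 genes of a comparison. In CBFb_KD against Control, 19 of the 47 rose and 2 fell, or 44.7% called, beside 15.4% of all genes called (7.78% higher and 7.6% lower). The median log2 difference of the 47 was 0.24, and that of all genes was -0.01. The 19 comprised 8 V-ATPase subunits, 6 hydrolases, Lamp2, Mcoln1, Psap, Tfeb and Sqstm1, and the 2 that fell were Scarb2 and Gusb. The rises were modest, from 0.27 for Tpp1 to 0.70 for Atp6v1d, a range of 1.2-fold to 1.62-fold.

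After Ring1b knockdown fewer of the genes were called. Against Control, 11 of the 47 rose and 1, Lamp1, fell, or 25.5% called, beside 12.2% of all genes (5.66% higher and 6.57% lower). The median difference was 0.10, beside 0.01 over all genes. The 11 comprised 6 V-ATPase subunits, 3 hydrolases, Psap and Sqstm1. This count rested on the scaling of the arrays: the Ring1b_KD arrays had the highest medians as deposited, and 4 rose and 2 fell with the deposited values, while 1 rose and 4 fell with each array centred on its median. Over all genes the share of calls that were higher went from 46.2% to 34% and 12.2% under the same 3 scalings. Atp6v0e (higher) and Lamp1 (lower) were the 2 of the 12 that kept their call under all 3.

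Between the knockdowns, 9 of the 47 were higher in CBFb_KD and 3 lower, or 25.5% called, beside 19.4% of all genes (10.1% higher and 9.31% lower). The 9 were Atp6v0a2, Atp6v1d, Atp6v1f, Atp6v1g1, Lamp1, Npc1, Mcoln1, Gla and Hexa, and the 3 were Atp6v0e, Scarb2 and Smpd1. With the deposited values 16 were higher and 3 lower, and with median centring 17 and 2, while the higher share of calls over all genes went from 52.1% to 62.2% and 84.2%. All of the 12 but Atp6v0e kept their call under the 3 scalings. In CBFb_KD against Control the split moved less, to 17 and 2 as deposited and 13 and 2 when centred, with the share over all genes between 49.8% and 51.4%.

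**Figure D2:**
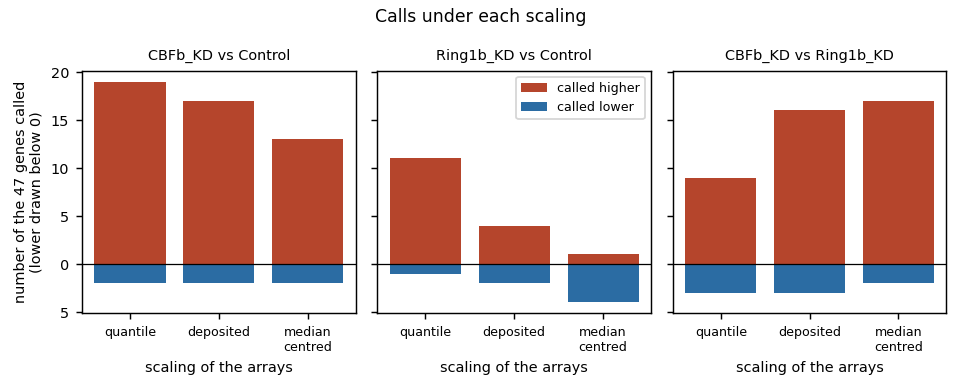
Number of the 47 genes called higher (red, above 0) and lower (blue, below 0) in each comparison when arrays were quantile normalized, used as deposited or centred on their medians. CBFb_KD against Control stays mostly above 0, whereas Ring1b_KD against Control goes from 11 higher and 1 lower to 1 higher and 4 lower.

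The shift showed in single arrays. Taking each gene's difference from its Control mean, the median over the 47 was 0.25, 0.26 and 0.21 in the 3 CBFb_KD arrays, with 36 or 37 of the 47 above 0. It was 0.13, 0.19 and 0.08 in the Ring1b_KD arrays, with 35, 35 and 30 above 0. In the Control arrays themselves it was 0.02, 0.03 and -0.04, and all-gene medians lay between -0.02 and 0.01 in every array. Control array 3 was thus the lowest of its group, with 15 of the 47 above the Control mean. Without it the counts fell, to 12 called in CBFb_KD and 5 in Ring1b_KD. Over all genes the counts also fell, from 2798 to 1751 and from 2225 to 1139. Control array 2 was the highest of its group, with 32 of the 47 above the Control mean. Without it the counts among the 47 were 13 and 6, and without Ring1b_KD array 1 or 2 the Ring1b_KD count was 6. The reason for these falls was not tested. Ring1b_KD array 3 read lowest of its group in several genes below, such as Hexa, Lamp2 and Gla; without it 12 genes were called against Control and 8 between the knockdowns.

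**Figure D3:**
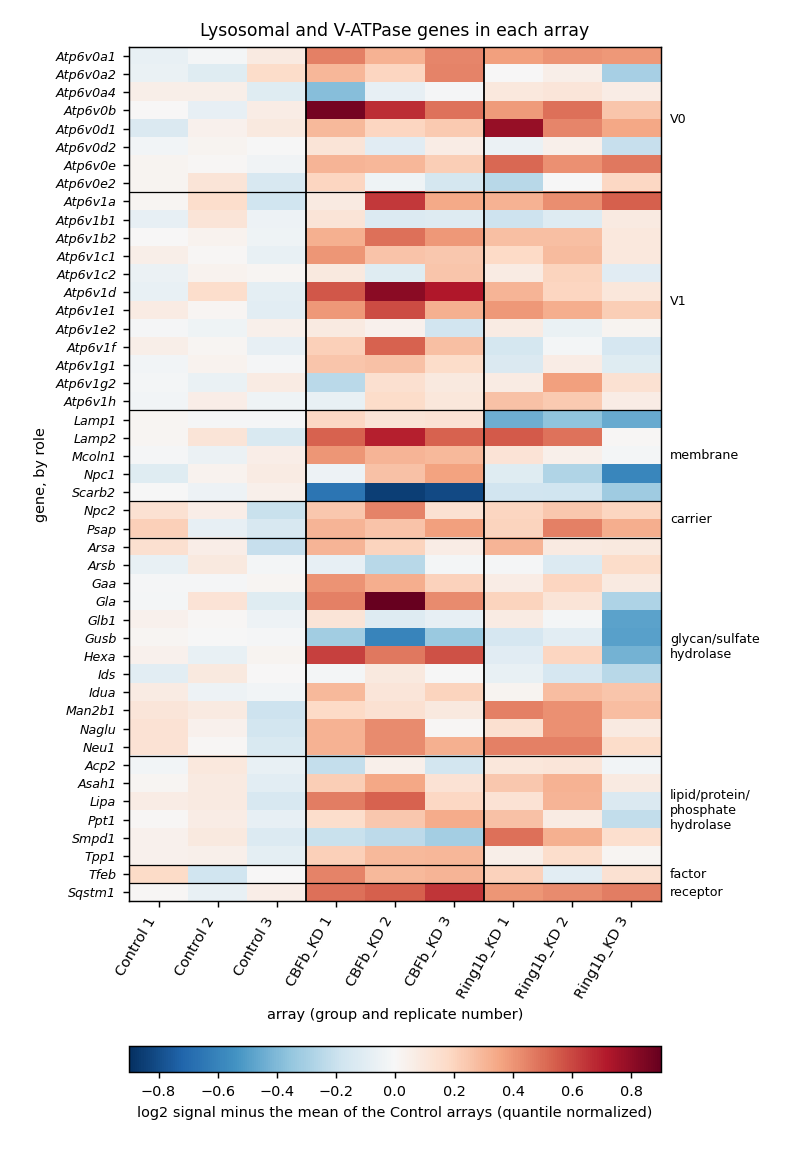
Log2 signal of the 47 genes in each of the 9 arrays, after quantile normalization, minus the gene's mean over the Control arrays; red is higher and blue lower. CBFb_KD columns are mostly red, with group means above Control for 36 of the 47 genes and below it for 11, Scarb2, Gusb and Smpd1 among the latter; Lamp1 is blue in all 3 Ring1b_KD arrays, and Ring1b_KD array 3 is bluer than its 2 partners in several hydrolases.

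The calls lay among the brighter genes. Of the 47 genes, 38 lay at or above the median gene, and these held every call of the 3 comparisons: 21 of 38 (55.3%) in CBFb_KD against Control, beside 27.5% of all genes at such levels, and 12 of 38 (31.6%) in Ring1b_KD, beside 21.5%. Between the knockdowns it was also 12 of 38 (31.6%), beside 33% of all genes at such levels. The 9 below it were Naglu, Arsb and 7 V-ATPase isoforms, Atp6v0a4, Atp6v0d2, Atp6v0e2, Atp6v1b1, Atp6v1c2, Atp6v1e2 and Atp6v1g2. Several of those isoforms are known for restricted expression, Atp6v0a4 and Atp6v1b1 in acid-secreting kidney cells and Atp6v0d2 in osteoclasts. Their log2 differences lay between -0.16 and 0.08 in CBFb_KD and between -0.07 and 0.19 in Ring1b_KD. The pump genes at or above the median gene numbered 13, and all 13 had an estimate above 0 in CBFb_KD. In Ring1b_KD 10 of them lay above 0 and 3 below.

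The proton pump moved in 1 direction where it was called: 8 of its 20 subunits rose in CBFb_KD and 6 in Ring1b_KD, with medians of 0.26 and 0.19. These made 40% and 30% called, beside 15.4% and 12.2% of all genes. By limma none was called lower than Control in either knockdown, and with an unadjusted p under 0.05 as the bar the counts were 12 higher and 0 lower in CBFb_KD and 9 and 0 in Ring1b_KD. The share of all genes that pass this unadjusted bar is not given here. With median centring 5 rose in CBFb_KD and 1 in Ring1b_KD, and the Ring1b_KD count was 3 as deposited and 3 without Ring1b_KD array 1 or 2 or any 1 of the Control arrays.

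In the membrane V0 sector, 3 of 8 subunits rose in CBFb_KD and 4 of 8 in Ring1b_KD (37.5% and 50%, beside 15.4% and 12.2% of all genes called). Atp6v0b, a proteolipid of the rotor ring, read 10.66, 10.58 and 10.72 in Control, 11.52, 11.32 and 11.14 in CBFb_KD and 11.04, 11.15 and 10.91 in Ring1b_KD (log2 signal, arrays 1 to 3). Every knockdown array lay above every Control array. It rose by 0.67 (SE 0.10) in CBFb_KD (limma adjusted p = 0.000565) and by 0.38 (SE 0.10) in Ring1b_KD (limma adjusted p = 0.0251), the latter call being lost under both other scalings and without Ring1b_KD array 1 or 2 or any 1 of the Control arrays. Atp6v0e, a small membrane subunit, read 11.85, 11.84 and 11.80 in Control, 12.14, 12.13 and 12.05 in CBFb_KD and 12.35, 12.24 and 12.31 in Ring1b_KD. Its 3 groups formed 3 separate steps, Control lowest and Ring1b_KD highest. The rise was 0.28 (SE 0.06) in CBFb_KD (limma adjusted p = 0.00867), lost with median centring, and 0.47 (SE 0.06) in Ring1b_KD (limma adjusted p = 0.000585). The difference between the knockdowns, -0.19, passed narrowly (limma adjusted p = 0.0494) and was lost under both other scalings and without any of 8 of the 9 arrays, Ring1b_KD array 2 being the exception.

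Atp6v0a1, the a1 isoform of the proton-channel subunit, read 9.25, 9.30 and 9.39 in Control, 9.77, 9.63 and 9.75 in CBFb_KD and 9.68, 9.72 and 9.71 in Ring1b_KD. Both knockdown groups lay above Control and overlapped each other. The rises were close, 0.40 (SE 0.08) in CBFb_KD (limma adjusted p = 0.00288) and 0.39 (SE 0.08) in Ring1b_KD (limma adjusted p = 0.00607), the second lost with median centring. Atp6v0a2, its a2 isoform, read 9.18, 9.13 and 9.40 in Control, 9.54, 9.43 and 9.69 in CBFb_KD and 9.24, 9.29 and 8.94 in Ring1b_KD. CBFb_KD lay above both other groups, and those overlapped. It was higher in CBFb_KD than in Ring1b_KD by 0.39 (SE 0.11, limma adjusted p = 0.0247), but not when CBFb_KD array 3 or Ring1b_KD array 3 was left out. Atp6v0d1, which couples the rotor ring to the central stalk, read 11.20, 11.36 and 11.42 in Control, 11.62, 11.52 and 11.56 in CBFb_KD and 12.11, 11.77 and 11.67 in Ring1b_KD. Ring1b_KD array 1 was the highest and the 3 groups did not overlap. Its rise of 0.52 (SE 0.10) in Ring1b_KD (limma adjusted p = 0.00622) was lost with median centring, and its 0.24 in CBFb_KD was not called (limma adjusted p = 0.168).

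In the cytosolic V1 sector, 5 of 12 subunits rose in CBFb_KD, or 3 without Control array 3, and 2 of 12 in Ring1b_KD. The CBFb_KD share was 41.7%, beside 15.4% of all genes called. In Ring1b_KD it was 16.7%, close to the 12.2% of all genes. Neither Ring1b_KD call held under the other scalings, with probe sets averaged, or without Ring1b_KD array 1 or 2 or any 1 of the Control arrays. Atp6v1d, a subunit of the central rotor stalk, had the largest rise among the 47 in CBFb_KD. It read 10.82, 11.04 and 10.80 in Control, 11.45, 11.70 and 11.61 in CBFb_KD and 11.19, 11.08 and 10.99 in Ring1b_KD. All CBFb_KD arrays lay above the other 6, and Control and Ring1b_KD overlapped. The difference was 0.70 (SE 0.09) against Control (limma adjusted p = 0.000279) and 0.50 (SE 0.09) against Ring1b_KD (limma adjusted p = 0.00224). Its 3 probe sets gave 0.70, 0.73 and 0.73 against Control. Atp6v1f, of the same stalk, read 11.82, 11.79 and 11.69 in Control, 11.98, 12.29 and 12.04 in CBFb_KD and 11.61, 11.75 and 11.61 in Ring1b_KD. It too stood highest in CBFb_KD, by 0.34 (SE 0.09) over Control (limma adjusted p = 0.018) and by 0.45 (SE 0.09) over Ring1b_KD (limma adjusted p = 0.00311). The call against Control was lost with median centring and when array 2 of CBFb_KD or array 2 or 3 of Control was left out.

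The head of the V1 sector is built from A and B subunits. Atp6v1b2, the widely expressed B subunit, read 10.91, 10.94 and 10.87 in Control, 11.23, 11.40 and 11.30 in CBFb_KD and 11.18, 11.17 and 10.999 in Ring1b_KD. The 3 groups did not overlap, and it rose in CBFb_KD by 0.40 (SE 0.08, limma adjusted p = 0.00313). Its 0.21 in Ring1b_KD was called only when Ring1b_KD array 3 was left out (limma adjusted p = 0.0432). Atp6v1a, the catalytic A subunit, read 10.68, 10.81 and 10.48 in Control, 10.74, 11.29 and 10.996 in CBFb_KD and 10.97, 11.07 and 11.19 in Ring1b_KD. CBFb_KD array 1 overlapped Control, and no Ring1b_KD array did. The call in Ring1b_KD, 0.42 (SE 0.13, limma adjusted p = 0.0476), was lost under both other scalings, with probe sets averaged and without any of 7 of the 9 arrays, CBFb_KD arrays 1 and 2 being the exceptions. In CBFb_KD the difference of 0.35 was not called (limma adjusted p = 0.0867), and was called with the replicate number as a block (limma adjusted p = 0.0359).

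Peripheral stalks hold the head in place. Atp6v1e1 read 9.98, 9.93 and 9.81 in Control, 10.30, 10.49 and 10.23 in CBFb_KD and 10.30, 10.23 and 10.13 in Ring1b_KD. Both knockdown groups lay above Control. It rose by 0.43 (SE 0.09) in CBFb_KD (limma adjusted p = 0.00489) and by 0.31 (SE 0.09) in Ring1b_KD (limma adjusted p = 0.0366), and both calls were lost when its probe sets were averaged. The Ring1b_KD call was also lost under both other scalings and without Ring1b_KD array 1 or 2 or any 1 of the Control arrays. Atp6v1c1 read 11.69, 11.65 and 11.58 in Control, 12.04, 11.90 and 11.88 in CBFb_KD and 11.82, 11.92 and 11.73 in Ring1b_KD. No knockdown array fell within the Control range, and the rise in CBFb_KD, 0.30 (SE 0.07, limma adjusted p = 0.0147), was lost with median centring and without Control array 3. Atp6v1g1 read 11.51, 11.57 and 11.53 in Control, 11.78, 11.79 and 11.70 in CBFb_KD and 11.40, 11.60 and 11.42 in Ring1b_KD. CBFb_KD lay above both other groups, and Ring1b_KD arrays fell on either side of Control. It was higher in CBFb_KD than in Ring1b_KD by 0.28 (SE 0.07, limma adjusted p = 0.0149), no longer called without CBFb_KD array 2 or with probe sets averaged. Its 0.22 over Control was not called (limma adjusted p = 0.0539) but was with the replicate block (limma adjusted p = 0.0363). Atp6v1h, the regulatory H subunit, was called in no comparison.

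**Figure D4:**
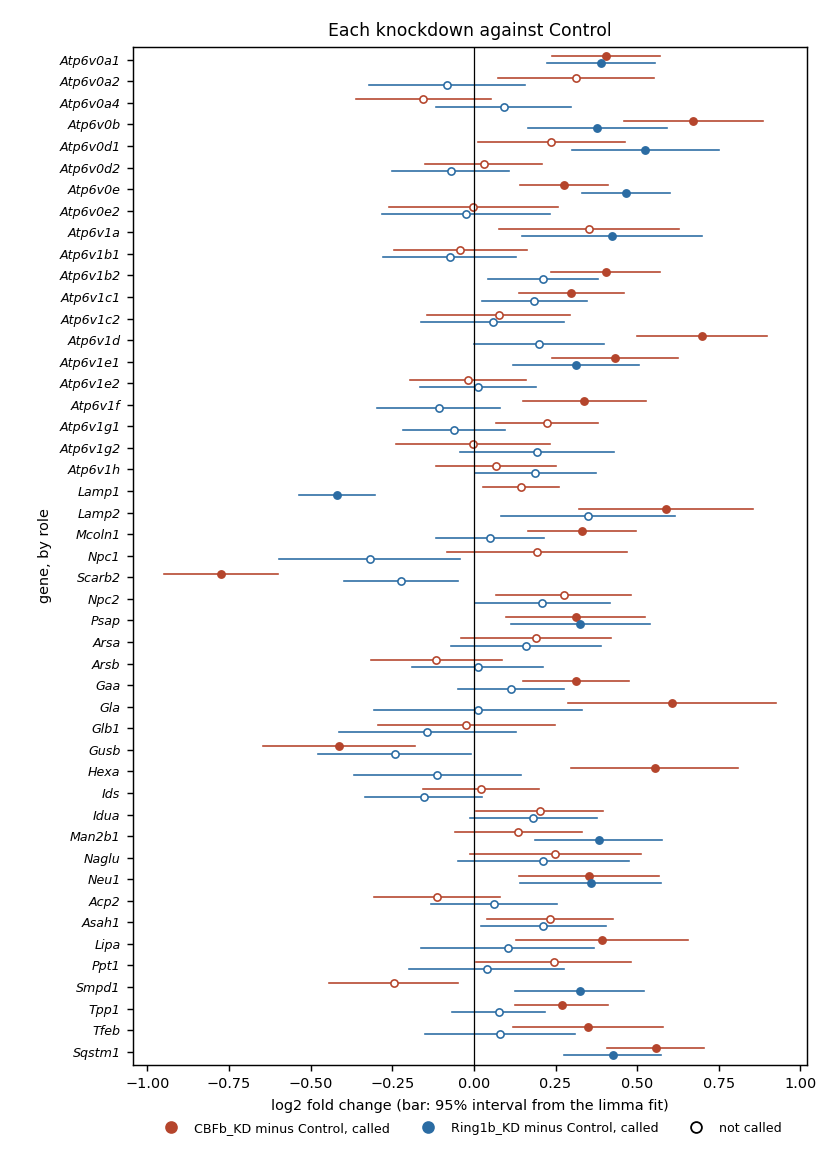
Log2 fold change of each of the 47 genes against Control in CBFb_KD (red) and Ring1b_KD (blue), with 95% intervals from the limma fit; filled points are called and open points are not. Most red points lie right of 0, Scarb2 and Gusb are the filled red points left of it, and Lamp1 is the filled blue point left of 0.

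The membrane proteins diverged from one another. Lamp1 and Lamp2, heavily glycosylated proteins that line the lysosomal membrane, are structural relatives. Lamp1 read 13.45, 13.42 and 13.42 in Control, 13.61, 13.54 and 13.55 in CBFb_KD and 12.98, 13.06 and 12.98 in Ring1b_KD. The 3 groups were apart, with Ring1b_KD lowest and CBFb_KD highest. It fell by 0.42 (SE 0.05) in Ring1b_KD (limma adjusted p = 0.000466), 1.34-fold, and its 0.14 in CBFb_KD was not called (limma adjusted p = 0.1). CBFb_KD exceeded Ring1b_KD by 0.56 (SE 0.05, limma adjusted p = 1.92e-05), the smallest adjusted p of the 47 genes in that comparison. Lamp2 read 11.75, 11.85 and 11.60 in Control, 12.27, 12.44 and 12.27 in CBFb_KD and 12.29, 12.22 and 11.74 in Ring1b_KD. In Ring1b_KD, arrays 1 and 2 lay above Control and array 3 within it. The rise in CBFb_KD was 0.59 (SE 0.12, limma adjusted p = 0.00537), and the 0.35 in Ring1b_KD was not called (limma adjusted p = 0.0856). Without Ring1b_KD array 3 it was called higher there too (limma adjusted p = 0.00351).

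Scarb2, also known as LIMP-2, carries glucocerebrosidase to the lysosome, and it moved against most of the set. It read 10.31, 10.26 and 10.36 in Control, 9.65, 9.46 and 9.49 in CBFb_KD and 10.14, 10.13 and 9.99 in Ring1b_KD. The 3 groups did not overlap, with CBFb_KD lowest. It fell by 0.78 (SE 0.08) in CBFb_KD (limma adjusted p = 5.44e-05), 1.71-fold, and was lower there than in Ring1b_KD by a difference of -0.55 (SE 0.08, limma adjusted p = 0.000445). Its second probe set differed by -0.11 from Control and was not called, so the fall rests on 1 of its 2 probe sets. In Ring1b_KD its -0.22 was not called (limma adjusted p = 0.0936) and was called under both other scalings, at -0.33 as deposited and -0.42 centred.

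Mcoln1 encodes the calcium channel TRPML1 of the lysosomal membrane. It read 9.55, 9.50 and 9.62 in Control, 9.96, 9.86 and 9.85 in CBFb_KD and 9.68, 9.61 and 9.54 in Ring1b_KD. CBFb_KD lay above the other 6 arrays, which overlapped. It rose by 0.33 (SE 0.08) over Control (limma adjusted p = 0.00947) and stood 0.28 (SE 0.08) above Ring1b_KD (limma adjusted p = 0.0203); the first call was lost without Control array 2 and the second without CBFb_KD array 1 or Ring1b_KD array 3 or in the fit of these 2 groups alone. Npc1 exports cholesterol from the lysosome together with the lumenal carrier Npc2. Npc1 read 7.62, 7.77 and 7.81 in Control, 7.69, 7.997 and 8.09 in CBFb_KD and 7.63, 7.47 and 7.15 in Ring1b_KD. The knockdown groups did not overlap, and both overlapped Control. The difference between them was 0.51 (SE 0.13, limma adjusted p = 0.0134), lost without CBFb_KD array 3 or Ring1b_KD array 3, and neither knockdown was called against Control. Npc2 was called in none of the 3 comparisons, with 0.28 in CBFb_KD (limma adjusted p = 0.0744), which the replicate block called (limma adjusted p = 0.0258).

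Psap, the precursor of the saposins that help hydrolases reach sphingolipids, read 11.15, 10.86 and 10.79 in Control, 11.24, 11.19 and 11.30 in CBFb_KD and 11.13, 11.39 and 11.26 in Ring1b_KD. Control array 1 was high and overlapped Ring1b_KD. Its rises of 0.31 (SE 0.10) in CBFb_KD (limma adjusted p = 0.0493) and 0.33 (SE 0.10) in Ring1b_KD (limma adjusted p = 0.0477) passed narrowly, were both lost under the other scalings and without a variance trend, and were kept in 3 and 2 of the 9 fits that each left out 1 array.

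The 18 hydrolases had medians of 0.22 in CBFb_KD, with 6 higher and 1 lower, and 0.09 in Ring1b_KD, with 3 higher. The CBFb_KD share called was 38.9%, beside 15.4% of all genes. In Ring1b_KD it was 16.7%, close to the 12.2% of all genes. Single arrays moved the CBFb_KD count: without CBFb_KD array 2 or Control array 2 it was 3 higher and 0 lower, and without Control array 3 it was 2 and 0. In Ring1b_KD no hydrolase was called as deposited, or without Ring1b_KD array 1 or Control array 3, and 1 was without Ring1b_KD array 2 or Control array 2. Among the 12 hydrolases of glycans and sulfate esters, 4 rose and 1 fell in CBFb_KD (41.7% called), and 2 rose in Ring1b_KD (16.7%). Hexa, the alpha subunit of beta-hexosaminidase, read 12.31, 12.20 and 12.30 in Control, 12.88, 12.74 and 12.84 in CBFb_KD and 12.17, 12.46 and 11.84 in Ring1b_KD. All CBFb_KD arrays lay above the other 6, and Ring1b_KD spread to both sides of Control with array 3 lowest. The difference was 0.55 (SE 0.12) against Control (limma adjusted p = 0.0063) and 0.67 (SE 0.12) against Ring1b_KD (limma adjusted p = 0.00175). Gla, alpha-galactosidase A, read 7.41, 7.54 and 7.32 in Control, 7.88, 8.37 and 7.84 in CBFb_KD and 7.62, 7.54 and 7.14 in Ring1b_KD. CBFb_KD again stood alone, with array 2 highest. The rise was 0.61 (SE 0.15) over Control (limma adjusted p = 0.0131), with 0.60 (SE 0.15) over Ring1b_KD (limma adjusted p = 0.013), and neither call held without CBFb_KD array 2. The first was also lost without Control array 3 and the second without Ring1b_KD array 3.

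Gaa, which degrades glycogen, read 10.61, 10.60 and 10.63 in Control, 11.02, 10.94 and 10.82 in CBFb_KD and 10.68, 10.81 and 10.70 in Ring1b_KD. The groups did not overlap, and it rose in CBFb_KD by 0.31 (SE 0.08, limma adjusted p = 0.0126), lost without Control array 2. Gusb, beta-glucuronidase, read 10.57, 10.55 and 10.55 in Control, 10.25, 9.96 and 10.23 in CBFb_KD and 10.41, 10.47 and 10.07 in Ring1b_KD. Every knockdown array lay below Control. It fell by 0.41 (SE 0.11) in CBFb_KD (limma adjusted p = 0.0194), which ended when CBFb_KD array 2 or any 1 of the Control arrays was left out, and a second probe set gave -0.46. Its -0.24 in Ring1b_KD was not called (limma adjusted p = 0.169), except with median centring (limma adjusted p = 0.0285).

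Neu1, a sialidase, read 8.15, 8.03 and 7.88 in Control, 8.33, 8.44 and 8.34 in CBFb_KD and 8.48, 8.47 and 8.18 in Ring1b_KD. No knockdown array overlapped Control. The rises were 0.35 (SE 0.10) in CBFb_KD (limma adjusted p = 0.0291) and 0.36 (SE 0.10) in Ring1b_KD (limma adjusted p = 0.0337). Both were lost with probe sets averaged and without Control array 2, Control array 3 or 2 of the knockdown's own arrays (CBFb_KD arrays 2 and 3, Ring1b_KD arrays 1 and 2), and the second also under both other scalings and in the fit of the 2 groups alone. Man2b1, an alpha-mannosidase, read 10.23, 10.20 and 9.94 in Control, 10.30, 10.26 and 10.21 in CBFb_KD and 10.57, 10.54 and 10.40 in Ring1b_KD. Ring1b_KD lay above the other 6 arrays. It rose there by 0.38 (SE 0.09, limma adjusted p = 0.0156), lost under both other scalings and without Ring1b_KD array 1 or Control array 3. The remaining 6 of this class, Arsa, Arsb, Glb1, Ids, Idua and Naglu, were called in none of the 3 comparisons, although Ids was called lower in Ring1b_KD than in Control with median centring and higher in CBFb_KD than in Ring1b_KD under both other scalings.

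Of the 6 hydrolases of lipids, proteins and phosphate esters, 2 rose in CBFb_KD, or 1 without Ring1b_KD array 1, and 1 in Ring1b_KD. These made 33.3% and 16.7% called, beside 15.4% and 12.2% of all genes. Smpd1, acid sphingomyelinase, split the knockdowns: it read 11.34, 11.39 and 11.18 in Control, 11.11, 11.07 and 11.001 in CBFb_KD and 11.80, 11.63 and 11.46 in Ring1b_KD. Control lay between the knockdowns with no overlap. The knockdowns differed by -0.57 (SE 0.09, CBFb_KD minus Ring1b_KD, limma adjusted p = 0.000837), and a second probe set gave -0.41, also called. Against Control it rose by 0.32 (SE 0.09) in Ring1b_KD (limma adjusted p = 0.0356), lost under both other scalings, with probe sets averaged, with the fit limited to these 2 groups and without any of 6 arrays (CBFb_KD array 3, Ring1b_KD arrays 1 and 2, and each Control array). In CBFb_KD its -0.25 was not called (limma adjusted p = 0.0976), and both the replicate block (limma adjusted p = 0.0338) and the fit of these 2 groups (limma adjusted p = 0.0442) called it lower.

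Tpp1, a peptidase, read 12.69, 12.70 and 12.56 in Control, 12.86, 12.94 and 12.95 in CBFb_KD and 12.70, 12.81 and 12.67 in Ring1b_KD. CBFb_KD lay above the other 6 arrays. It rose by 0.27 (SE 0.07, limma adjusted p = 0.0137), lost with median centring and without CBFb_KD array 3 or Control array 3. Lipa, the acid lipase of cholesteryl esters, read 9.46, 9.47 and 9.25 in Control, 9.86, 9.93 and 9.58 in CBFb_KD and 9.53, 9.70 and 9.26 in Ring1b_KD. CBFb_KD lay above Control, and Ring1b_KD overlapped both. Its rise of 0.39 (SE 0.12, limma adjusted p = 0.0461) was lost under both other scalings and with probe sets averaged, and kept in 3 of the 9 fits that each left out 1 array. Acp2, Asah1 and Ppt1 were not called, although Asah1, acid ceramidase, at 0.23 in CBFb_KD (limma adjusted p = 0.109) was called with the replicate block (limma adjusted p = 0.0414).

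Tfeb, the factor that activates many of these genes, read 9.17, 8.82 and 9.002 in Control, 9.45, 9.29 and 9.30 in CBFb_KD and 9.20, 8.90 and 9.14 in Ring1b_KD. CBFb_KD lay above the other 6 arrays, which overlapped. The rise was 0.35 (SE 0.11, limma adjusted p = 0.0419) and was lost without any 1 of the CBFb_KD arrays, Control array 2 or Control array 3. Sqstm1, or p62, which brings ubiquitinated cargo to autophagosomes, read 11.22, 11.15 and 11.27 in Control, 11.71, 11.75 and 11.86 in CBFb_KD and 11.61, 11.64 and 11.67 in Ring1b_KD. The 3 groups did not overlap. It rose by 0.56 (SE 0.07) in CBFb_KD (limma adjusted p = 0.00017) and by 0.43 (SE 0.07) in Ring1b_KD (limma adjusted p = 0.002), the second lost with median centring and with probe sets averaged.

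**Figure D5:**
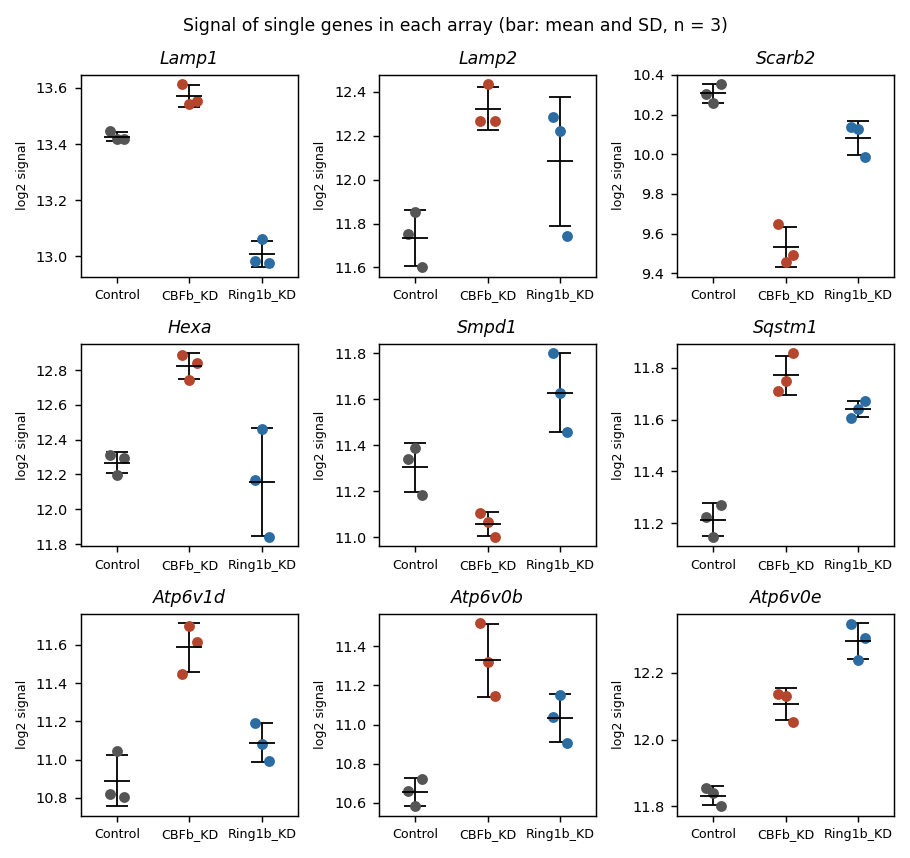
Log2 signal of 9 of the genes in every array (points), with the mean and SD of each group (bars, n = 3); each panel has its own axis, which does not start at 0. Lamp1 is lowest in Ring1b_KD, Scarb2 lowest in CBFb_KD, Smpd1 moves apart in the knockdowns, and Sqstm1 is above Control in both.

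Across the set, 29 genes were called in at least 1 comparison and 18 in none. The calls against Control were shared for 7 genes, Atp6v0a1, Atp6v0b, Atp6v0e, Atp6v1e1, Neu1, Psap and Sqstm1, all higher in both knockdowns, or 7 of the 21 in CBFb_KD and 7 of the 12 in Ring1b_KD. Since both comparisons use the same Control arrays, this overlap is a description. The numbers of all genes called in both knockdowns, in the same or opposite directions, are not given here. Of the 7, only Atp6v0e kept its Ring1b_KD call under all 3 scalings. None was called in opposite directions. Of the 14 called in CBFb_KD and not in Ring1b_KD, 6 also differed between the knockdowns: Atp6v1d, Atp6v1f, Scarb2, Gla, Hexa and Mcoln1. For the other 8 the difference between the knockdowns was not called, so an unequal response was not shown. Of these, 5 (Atp6v1b2, Gaa, Tpp1, Lipa and Tfeb) were called higher in CBFb_KD than in Ring1b_KD under both other scalings. Those scalings also moved the higher share of calls over all genes from 52.1% to 62.2% as deposited and 84.2% when centred. Arrays of 29 genes (26 higher, 3 lower) did not overlap between CBFb_KD and Control, beside 31.6% of all genes, and those of 20 did not between Ring1b_KD and Control, beside 32.9%.

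The other genes of the pathway were read from 5 lists, 112 genes measured of 123. In CBFb_KD 27 rose and 3 fell, in Ring1b_KD 21 rose and 11 fell, and between the knockdowns 28 were higher in CBFb_KD and 11 lower. These made 26.8%, 28.6% and 34.8% called, beside 15.4%, 12.2% and 19.4% of all genes, and the medians were 0.10, 0.06 and 0.06. As deposited the Ring1b_KD split was 10 and 15, with median centring it was 7 and 21, and without Control array 3 it was 10 and 7.

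Of 29 other lysosomal hydrolases, activators and membrane proteins, 10 rose and 1 fell in CBFb_KD (37.9% called, beside 15.4% of all genes), with a median of 0.10. The rises included Laptm5 at 1.54 (limma adjusted p = 3.37e-06) and Laptm4a at 0.85, both lysosomal transmembrane proteins, Grn, the progranulin precursor, at 0.94 and the peptidase Lgmn at 0.57, and the fall was of the mannosidase Manba, at -0.44. Lgmn signal was low, with means of 4.80 in Control and 5.38 in CBFb_KD, below the median gene of 7.42. In Ring1b_KD 4 rose and 4 fell (27.6%, beside 12.2% of all genes), with a median of 0.05, among them Laptm5 at 0.85, Grn at 0.85, the galactosylceramidase Galc at 0.83 and the fucosidase Fuca1 at -0.41; without Control array 2 or 3 the split was 3 and 2. Galc was lower in CBFb_KD than in Ring1b_KD by a difference of -1.14 (limma adjusted p = 1.14e-05), and Cln3, a lysosomal membrane protein, was higher by 0.98. Of 12 pump subunits and assembly factors with other names, 2 rose in CBFb_KD (median 0.09), and 2 rose and 1 fell in Ring1b_KD (median 0.11). The CBFb_KD share, 16.7%, was close to the 15.4% of all genes, and the Ring1b_KD share was 25%, beside 12.2%. Rnasek, a pump-associated membrane protein, rose by 1.00 in CBFb_KD (limma adjusted p = 7.96e-05). The accessory subunit Atp6ap1 was also called there at 0.29 (limma adjusted p = 0.041), a call lost as deposited and without any 1 of the CBFb_KD or Control arrays. Ncoa7, which binds the pump, fell by 0.89 in Ring1b_KD (limma adjusted p = 0.00915). Wdr7 at 0.36 and the assembly factor Vma21 at 0.27, the 2 that rose there, were not called as deposited or without Control array 1 or 3.

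Delivery genes split in direction: of 23, 3 rose and 2 fell in CBFb_KD, and 5 rose and 3 fell in Ring1b_KD, with medians of 0.15 and 0.10. That was 21.7% and 34.8% called, beside 15.4% and 12.2% of all genes. Both that fell in CBFb_KD make the mannose 6-phosphate tag, Gnptab by -0.57 (limma adjusted p = 0.00129) and Nagpa by -0.46 (limma adjusted p = 0.00193), the latter lost with probe sets averaged. Ap1g1, a subunit of the AP-1 adaptor, fell by 0.48 in Ring1b_KD (limma adjusted p = 0.00363), lost with probe sets averaged, and differed by 0.66 between the knockdowns. The Ring1b_KD split was 2 and 3 without Control array 3, 4 and 1 without Control array 1 and 3 and 2 with probe sets averaged.

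Among 22 genes of the TFEB relatives and of mTORC1 at the lysosome, 3 rose in CBFb_KD, and 7 rose and 1 fell in Ring1b_KD, with medians of 0.08 and 0.11, the latter split being 3 and 1 as deposited and 4 and 1 without Control array 3. The CBFb_KD share, 13.6%, lay below the 15.4% of all genes, and the Ring1b_KD share was 36.4%, beside 12.2%. Rragc, a Rag GTPase that docks mTORC1 and TFEB, fell by 0.77 in Ring1b_KD (limma adjusted p = 5.17e-05) and was 0.99 higher in CBFb_KD than in Ring1b_KD (limma adjusted p = 2.44e-06). Rptor, the mTORC1 scaffold, rose by 0.52 and 0.65 in CBFb_KD and Ring1b_KD, Lamtor3, a Ragulator subunit, by 0.31 and 0.50, and Fnip1, a folliculin partner, by 0.69 and 0.88. The Fnip1 call in CBFb_KD was lost without CBFb_KD array 2 or 3 or Control array 1 or 3, the Lamtor3 call there with median centring, and those of Rptor in both and of Fnip1 in Ring1b_KD with probe sets averaged.

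Of 26 autophagy genes, 9 rose and none fell in CBFb_KD by limma (34.6% called, beside 15.4% of all genes), with a median of 0.16, and 10 were higher and 0 lower at an unadjusted p under 0.05. They included Gabarapl2 at 0.78 (limma adjusted p = 0.000145) and Gabarap at 0.47, which are coupled to autophagosome membranes, Wipi1 at 0.79 and the kinase Ulk1 at 0.45. In Ring1b_KD 3 rose and 2 fell (19.2%, beside 12.2%), with a median of 0.01, Map1lc3b at 0.47 and Ulk2 at -0.41; the split was 1 and 2 as deposited, with probe sets averaged or without Ring1b_KD array 2, 3 and 0 without Ring1b_KD array 3 or Control array 2, 2 and 1 without Control array 1, and 1 and 0 without Control array 3.

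Markers of 5 cell types were also read, and the lists did not move alike. In CBFb_KD against Control 50% of megakaryocyte, 0% of macrophage, 14.3% of granulocyte, 50% of mast cell and 40% of erythroid markers were called. The share of all genes was 15.4%, so the granulocyte share lay below it. In Ring1b_KD the shares were 10%, 0%, 0%, 33.3% and 0% in the same order, beside 12.2% of all genes. Of 10 measured megakaryocyte markers, 5 rose in CBFb_KD (Gp9 by 2.32, Treml1 by 1.82, Gp5 by 1.68, Ppbp by 1.62 and Itga2b by 1.03) and none fell by limma (6 higher and 0 lower at an unadjusted p under 0.05). Their log2 summed signal was 15.27 to 15.32, beside 14.65 to 14.98 in Control and 14.28 to 15.09 in Ring1b_KD. In Ring1b_KD 1 fell, Vwf by 0.75, a call lost without Ring1b_KD array 1 or 3 or Control array 1 or 2. Of 9 macrophage markers none was called against Control in either knockdown by limma, with 1 in CBFb_KD and 2 in Ring1b_KD at an unadjusted p under 0.05 and 2 called in Ring1b_KD as deposited. Of them 6 lay below the median gene, and their summed signal was 10.20 to 10.49 in CBFb_KD, 10.20 to 10.44 in Ring1b_KD and 10.15 to 10.44 in Control. Of 7 granulocyte markers 1 rose in CBFb_KD, Prtn3 by 1.42 (summed signal 9.64 to 9.84, beside 9.42 to 9.46 in Control and 9.41 to 9.47 in Ring1b_KD). Of 6 mast cell markers 3 fell in CBFb_KD (Ms4a2 by 1.92, and Kit and Mcpt1 each by 0.39), or 1 without CBFb_KD array 2 or Control array 2. In Ring1b_KD Fcer1a rose by 1.61 and Ms4a2 fell by 1.49 (summed signal 11.08 to 11.19 in CBFb_KD, 11.57 to 11.83 in Ring1b_KD and 10.996 to 11.55 in Control). Of 5 erythroid markers 2 rose in CBFb_KD, Alas2 by 1.61 and Epb42 by 1.10 (11.32 to 11.47, beside 11.06 to 11.22 in Control and 11.03 to 11.44 in Ring1b_KD). The part of these shifts in the lysosomal result was not tested, and in bulk RNA a change in the share of cells of a type cannot be told apart from a change in RNA per cell.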

How the data were processed

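RNA of 9 L8057 cultures was measured on 1-colour arrays of 45101 probe sets, primed from the poly(A) tail, per the labels' protocols. The authors deposited log2 signals, judged from their range of 3.23 to 15.35. Which software, background correction and normalization they used is not given in the sources used here. Array medians of the deposited values ran from 6.51 to 6.65, so they were quantile normalized with limma 3.58.1 (R 4.3.3) over all probe sets, and 64 control probe sets were then dropped. The platform annotation gave 34945 probe sets a single symbol and 932 several, and 9160 were unnamed here. Each of the 18193 genes took its brightest single-symbol probe set. Group means over all 9 arrays were fitted with lmFit and eBayes (trend), prior 6.80 degrees of freedom, two-sided, with Benjamini-Hochberg adjustment over all genes; called means adjusted p under 0.05. An exact test of 3 arrays against 3 cannot go below 0.1.

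The genes and lists were chosen with earlier results of these data known. Array values are given for every gene called in a comparison and for Tfeb, Lamp1 and Lamp2, and up to 4 called genes per list by adjusted p are named. Marker lists cover 5 cell types, and all called megakaryocyte markers are named; that extension, like the Scarb2, Gusb, Smpd1 and Atp6v1d probe set values, was chosen after seeing the values. All 47 genes matched RefSeq symbols, 30 have several probe sets (106 in all), and none had probe sets called in opposite directions. The fit was tested on simulated data, with 100 genes changed in each comparison. At a true log2 change of 0.5 it recovered 74 in CBFb_KD against Control, 56 in Ring1b_KD against Control and 61 between the knockdowns. At a change of 1 it recovered 98, 98 and 96. False calls numbered 5, 5 and 4 in the same order. A gene that was not called may therefore still differ. The simulation changed far fewer genes than were called in the data, which alters the adjusted p bar. Its recovery may thus not carry over to these comparisons, and no size under 0.5 is given.

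Same-numbered arrays of CBFb_KD and Control deviated together (correlations 0.203, 0.377 and 0.2). Their differently numbered arrays gave -0.346 to 0.147, the highest being CBFb_KD array 1 with Control array 3. Deviations within a group cancel out, so these correlations are not independent. They are only a weak hint that the numbers pair the arrays, and are why block values stand beside some results. Same-numbered arrays of Ring1b_KD and Control gave -0.068, 0.044 and 0.153, and those of the knockdowns 0.045, 0.104 and -0.038. The block was applied to the Ring1b_KD arrays as well. The alternatives were 2 other scalings, the replicate block, robust or untrended eBayes, probe set means, a level filter, fits of the 2 groups compared, and leaving out each array.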

Additional observations from a re-analysis of the deposited data

How the results depend on the processing

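The calls that involve Ring1b_KD depended on the scaling. For Ring1b_KD against Control the 12 genes called became 6 as deposited, 5 with median centring and 7 with probe sets averaged, and between the knockdowns the 12 became 19 under either other scaling. Leaving out 1 array at a time gave 12 to 22 called genes for CBFb_KD against Control, 5 to 12 for Ring1b_KD against Control and 8 to 14 between the knockdowns. For the pathway lists the same ranges were 22 to 32, 17 to 34 and 27 to 39, and over all genes 1751 to 2995, 1139 to 2365 and 2377 to 3564. With the replicate number as a block, 26, 13 and 17 genes were called in the 3 comparisons, and block values stand beside the results it changed in CBFb_KD against Control; no call there was lost under it. Same-numbered arrays were not paired by the check in the other comparisons, where the block added Lamp2 to the genes called in Ring1b_KD against Control.

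Of the called genes, 8 of 21 in CBFb_KD against Control, 2 of 12 in Ring1b_KD against Control and 6 of 12 between the knockdowns kept their call under every alternative run: Atp6v0a1, Atp6v0b, Atp6v1b2, Atp6v1d, Lamp2, Scarb2, Hexa and Sqstm1; Atp6v0e and Lamp1; and Atp6v1d, Atp6v1f, Lamp1, Scarb2, Hexa and Smpd1. No called gene changed sign under any of them. Where an array or setting ended a call, the cause was not tested. The number of arrays, 3 a group, limits the precision.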
